A study of Homo sapiens with 12 samples.

Results

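The mitosis and spindle genes described here are 36 genes whose products act between the entry of a cell into mitosis and its separation into daughter cells. They were chosen by name and not by a cut on their values, but with earlier results of these data known. The values given for a gene come from 1 probe set, the one of highest average signal among those that name no other gene. All 36 passed the filter on low values and stood among 10966 tested genes. Expression was measured on Affymetrix arrays in HK-2, a line of human proximal tubule epithelium immortalized with papillomavirus oncogenes that bind p53 and the retinoblastoma family, grown in a defined medium with EGF, insulin and hydrocortisone and treated when nearly confluent. The 4 groups, with 3 biological replicates in each, were cells given Nnm at its high dose for 24 h, vehicle control cells at 24 h, cells given Nnm at its high dose for 48 h and vehicle control cells at 48 h. Nnm is written as in the labels, and the sources used here give no concentration and no name for the vehicle. HK-2 is 1 immortalized line, so the replicates are separate samples of that line and not separate people.

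In vehicle control cells, every one of the 36 genes was lower at 48 h than at 24 h in each of the 3 pairs of same-numbered arrays, by a median of -0.57 on the log2 scale. At 24 h, the median difference between Nnm and control cells was -0.12. NEK2, a centrosome kinase, was 2.00-fold higher in Nnm cells and BUB1B, a kinase of the spindle checkpoint, was 1.5-fold lower, and these were the 2 members called by limma. At 48 h no member was called. The 3 Nnm arrays of that time lay far apart: replicate 1 had the lowest value of the 3 for all 36 genes, and replicate 2 had the highest for 31.

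Entry into mitosis is driven by CDK1 bound to cyclins A and B. The spindle is then built by motor proteins and the Aurora kinases, and a checkpoint of BUB, MAD and TTK proteins holds back separation until every kinetochore is attached. CDC20 with the anaphase-promoting complex then marks cyclin B and securin for destruction, and kinesins and bundling proteins of the central spindle carry out cytokinesis. Most of these genes are transcribed late in the cell cycle. Their promoters are held silent in resting cells by the DREAM complex and activated in G2 by B-MYB and FOXM1, which act with the same MuvB core, so their messages are widely used as a readout of how many cells in a culture divide. In bulk RNA, fewer cells in mitosis and less of a message per mitotic cell cannot be told apart.

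The deposited log2 values had array medians of 2.91 to 2.98, and the members' means over the 12 arrays ran from 8.20 for KIF15 to 12.41 for BUB3. Nnm replicate 2 stood apart from the other Nnm arrays at both times. On the main axis of variation over all tested probe sets (57.4% of the variance), it scored -16.1 at 24 h and -19.8 at 48 h, while the remaining 4 Nnm arrays scored 68.6 to 87.8 and the 6 control arrays -49.6 to -44.2. Results that rest on the Nnm groups are therefore also given without both Nnm arrays numbered 2, an alternative chosen after the data were seen. Of the marker lists, 5 of 5 epithelial genes were tested, against 2 of 11 proximal tubule genes (PAX8 and CDH6), 3 of 5 fibroblast genes (COL1A1, DCN and LUM), 1 of 4 endothelial genes (PECAM1) and 0 of 4 leukocyte genes. GGT1, ANPEP, AQP1, CUBN, LRP2 and SLC34A1, which define the mature proximal tubule, stayed under the filter level. Among the epithelial genes, KRT8, KRT18, KRT19 and EPCAM averaged 11.69, 12.70, 12.26 and 13.11, and CDH1 averaged 6.82. Levels of the fibroblast genes DCN, LUM and COL1A1 averaged 11.92, 10.21 and 8.18, while COL3A1 and PDGFRA stayed under the filter level. The part of the markers in the results below was not tested.

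RefSeq promoter windows, 250 bases before to 50 bases after an annotated start on GRCh38.p14, were matched for 30 of the 36 members. TTK, BIRC5, UBE2C, BUB3, TPX2 and AURKA had no entry in the table used. A pair of short elements of late cell cycle promoters were searched on both strands: the cell cycle genes homology region (CHR), in the forms TTTGAA and TTCGAA, which binds the MuvB core of DREAM, and CCAAT, the core bound by the trimeric factor NF-Y. A CHR form was present in 23 of the 30 members (76.7%). It was present in 15.5% of 9076 tested genes with a window and in 19.5% of all 27305 genes with one. Counted by window, the shares were 72.2% of the members' 36 windows and 16.4% of all 35116 windows. CCAAT was present in 25 members (83.3%), against 44.0% of the tested genes and 39.7% of all genes with a window. Counted by window, it was present in 77.8% for the members and 34.6% for all. Both elements occurred in 20 members. BUB1B, KIF15 and NDC80 held a CHR form without CCAAT, AURKB, CCNA2, CCNB1, KIF20A and NEK2 held CCAAT without a CHR form, and CENPE and KIF2C held neither in these windows. The E2F-type motifs TTGGCGC and TTCGCGC were found in 4 (13.3%) and 3 (10.0%) members, against 6.23% and 4.97% of the tested genes.

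The sequences below are the 130 bases just before the start of 7 members, read from 5′ to 3′ on the strand of the gene from RefSeq (GRCh38.p14). Capitals mark a CHR form or CCAAT, with ATTGG standing for a CCAAT on the other strand. CCNB2 and CDC25C are shown because textbooks use them as examples of CHR promoters, NEK2 and BUB1B because they were called at 24 h, and KIF20A, PRC1 and HMMR because they lay far apart among the Nnm arrays of 48 h.
CCNB2 (chr15:59105016-59105145, plus strand): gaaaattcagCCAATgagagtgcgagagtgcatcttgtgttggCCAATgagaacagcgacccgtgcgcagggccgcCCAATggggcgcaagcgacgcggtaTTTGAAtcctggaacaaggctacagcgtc
CDC25C (chr5:138331805-138331934, minus strand): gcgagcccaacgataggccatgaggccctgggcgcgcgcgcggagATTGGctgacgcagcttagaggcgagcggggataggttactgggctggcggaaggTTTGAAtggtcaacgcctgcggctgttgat
NEK2 (chr1:211675622-211675751, minus strand): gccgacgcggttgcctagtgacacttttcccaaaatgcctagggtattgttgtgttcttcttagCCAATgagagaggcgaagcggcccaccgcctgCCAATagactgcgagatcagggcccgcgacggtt
BUB1B (chr15:40160939-40161068, plus strand): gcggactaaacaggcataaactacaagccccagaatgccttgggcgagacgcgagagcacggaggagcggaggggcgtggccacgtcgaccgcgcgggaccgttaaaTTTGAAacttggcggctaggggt
KIF20A (chr5:138178982-138179111, plus strand): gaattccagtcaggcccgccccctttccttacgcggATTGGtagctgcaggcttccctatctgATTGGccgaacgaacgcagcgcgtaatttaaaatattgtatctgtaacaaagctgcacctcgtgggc
PRC1 (chr15:90994536-90994665, minus strand): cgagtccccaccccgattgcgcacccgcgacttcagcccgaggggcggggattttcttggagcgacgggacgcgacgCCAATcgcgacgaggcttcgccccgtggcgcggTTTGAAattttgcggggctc
HMMR (chr5:163460502-163460631, plus strand): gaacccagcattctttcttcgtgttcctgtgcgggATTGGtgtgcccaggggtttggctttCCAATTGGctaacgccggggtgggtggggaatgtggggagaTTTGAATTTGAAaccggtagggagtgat
CCNB2 carries 3 CCAAT boxes in this stretch and a single CHR form nearer to the start. HMMR carries TTTGAA as 2 adjoining copies, and its CCAATTGG reads as CCAAT on both strands, so these 2 matches overlap. CDC25C had 4 windows in the table, of which 1 is shown. It was picked because it holds a CHR form before the start, and in another of the windows the CHR form lay after the start. A match is a description of these letters and not a site shown to be bound.

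**Figure D1:**
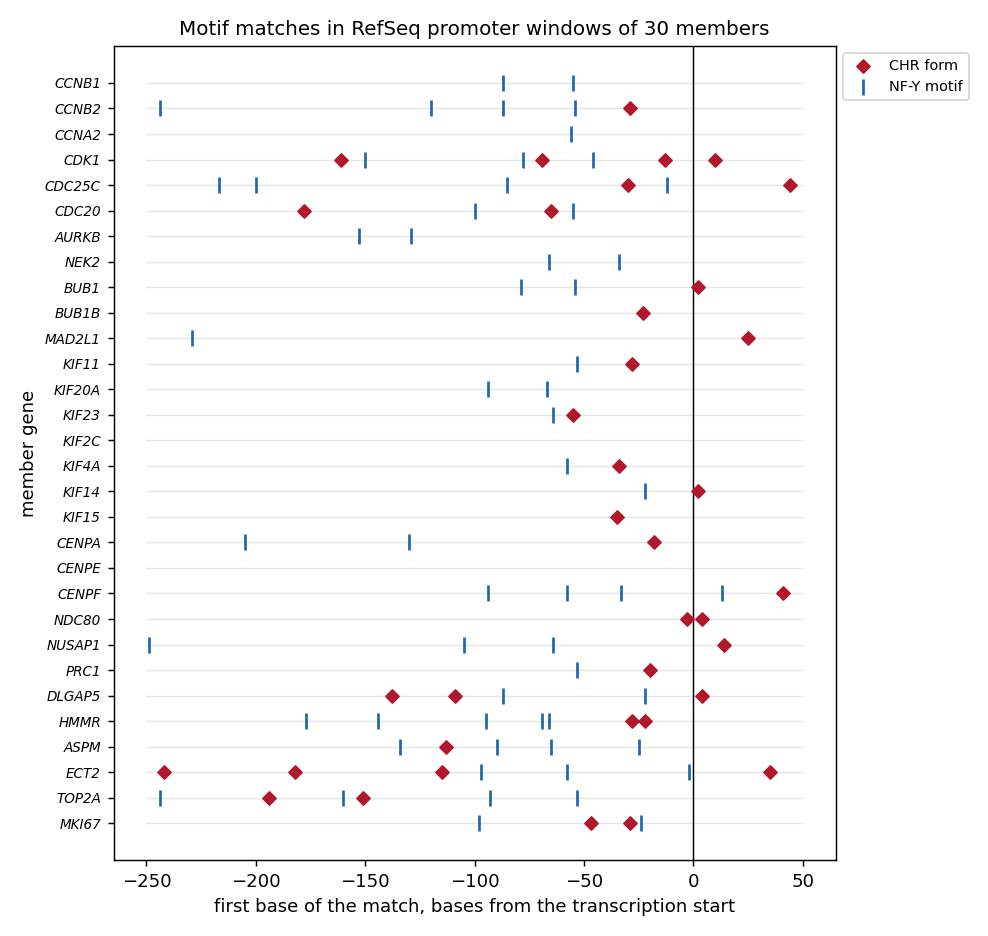
Position of CHR forms (diamonds, TTTGAA or TTCGAA on either strand) and of the NF-Y core motif (bars, either strand) in the promoter windows of the 30 matched members, in bases from the annotated transcription start (vertical line). Where a member had several windows, the matches of all its windows are drawn. A CHR form appears in 23 of the 30 genes and the NF-Y motif in 25.

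The first comparison asked how the genes moved with time in vehicle control cells alone. All 36 were lower at 48 h than at 24 h. The median difference was -0.60 in pair 1, -0.51 in pair 2 and -0.57 in pair 3, and no member was higher in any pair. Of all tested probe sets, 29.9% were lower in all 3 pairs. The control arrays of the 2 times did not overlap for 34 of the 36 members, with BUB3 and CDC25C the exceptions, against 12.1% of all tested probe sets lower without overlap. In the limma fit of all 12 arrays no member was called, with 0.0% of all tested probe sets called, and 14 of the 36 had an unadjusted p under 0.05, against 8.04% of all tested probe sets. That fit shares 1 spread per gene over all 4 groups, and the members' SD had a median of 0.67 in Nnm cells at 48 h, against 0.17 in control cells at 48 h.

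Same-numbered arrays deviated together, so the comparison was also fitted with a term for the pair. With that block over all 12 arrays limma called none of the members, beside 0.0526% of all tested probe sets. Within the 6 control arrays alone, a fit with 2 residual degrees of freedom that was added after the data were seen, 29 of the 36 members fell and none rose, against 4.79% of all tested probe sets that fell. Their limma adjusted p lay between 0.0273 and 0.0497. CDK1, CDC25C, NEK2, BUB3, KIF15, NUSAP1 and TOP2A were not called there. Of 35 further tested probe sets for 21 of the members, all 35 were lower at 48 h. The control arrays alone without the block gave 0 calls, and the cause of this difference was not tested.

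By role, the median difference over time was largest in the 2 genes of mitotic exit (-0.80). CDC20, which activates the anaphase-promoting complex, measured 10.67, 10.41 and 10.93 in control cells at 48 h, against 11.51, 11.33 and 11.98 at 24 h. The 48 h arrays all lay below the 24 h arrays, and CDC20 had the largest difference of the 36 members (-0.94 ± 0.25, SE; adjusted p = 0.0278 with the block in control arrays and 0.426 without it, limma). UBE2C, the ubiquitin-conjugating enzyme of that complex, differed by -0.65. CCNA2, the cyclin of S phase and G2, measured 9.97, 10.16 and 10.44 in control cells at 48 h, against 10.93, 11.01 and 11.32 at 24 h. These groups did not overlap either, and the difference was -0.90 ± 0.31 (SE; adjusted p = 0.0273 with the block in control arrays, limma). The cyclins CCNB1 and CCNB2 differed by -0.75 and -0.38, CDK1, their kinase partner, by -0.35, and CDC25C, the phosphatase that switches CDK1 on, by -0.27.

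The kinesins KIF11, KIF20A, KIF23, KIF2C, KIF4A, KIF14 and KIF15 differed by -0.48 to -0.84 over time in control cells. KIF23, a motor of the central spindle, measured 8.62, 9.06 and 9.01 at 48 h, against 9.5, 9.57 and 10.14 at 24 h, the widest difference of the 7. In the Aurora group the kinase AURKB, which corrects faulty attachments and drives cytokinesis, differed by -0.78, its partner BIRC5 (survivin) by -0.58, the spindle pole kinase AURKA by -0.66 and its activator TPX2 by -0.55. The 5 checkpoint genes differed by -0.34 (BUB3) to -0.67 (TTK, the kinase that starts checkpoint signalling). The kinetochore genes lay between -0.52 for CENPF and -0.74 for CENPE, the motor that moves chromosomes to the spindle equator. CENPA, the histone H3 variant that marks centromeres, measured 8.54, 8.53 and 8.88 in control cells at 48 h, against 9.18, 9.14 and 9.53 at 24 h, with no overlap. The spindle and midbody genes lay between -0.27 for NUSAP1 and -0.56 for HMMR and PRC1. TOP2A, which untangles sister chromosomes, differed by -0.33 and the proliferation antigen MKI67 by -0.63. Among members with a promoter window, the median difference was -0.56 for the 23 with a CHR form and -0.74 for the 7 without one, a description over unequal groups.

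**Figure D2:**
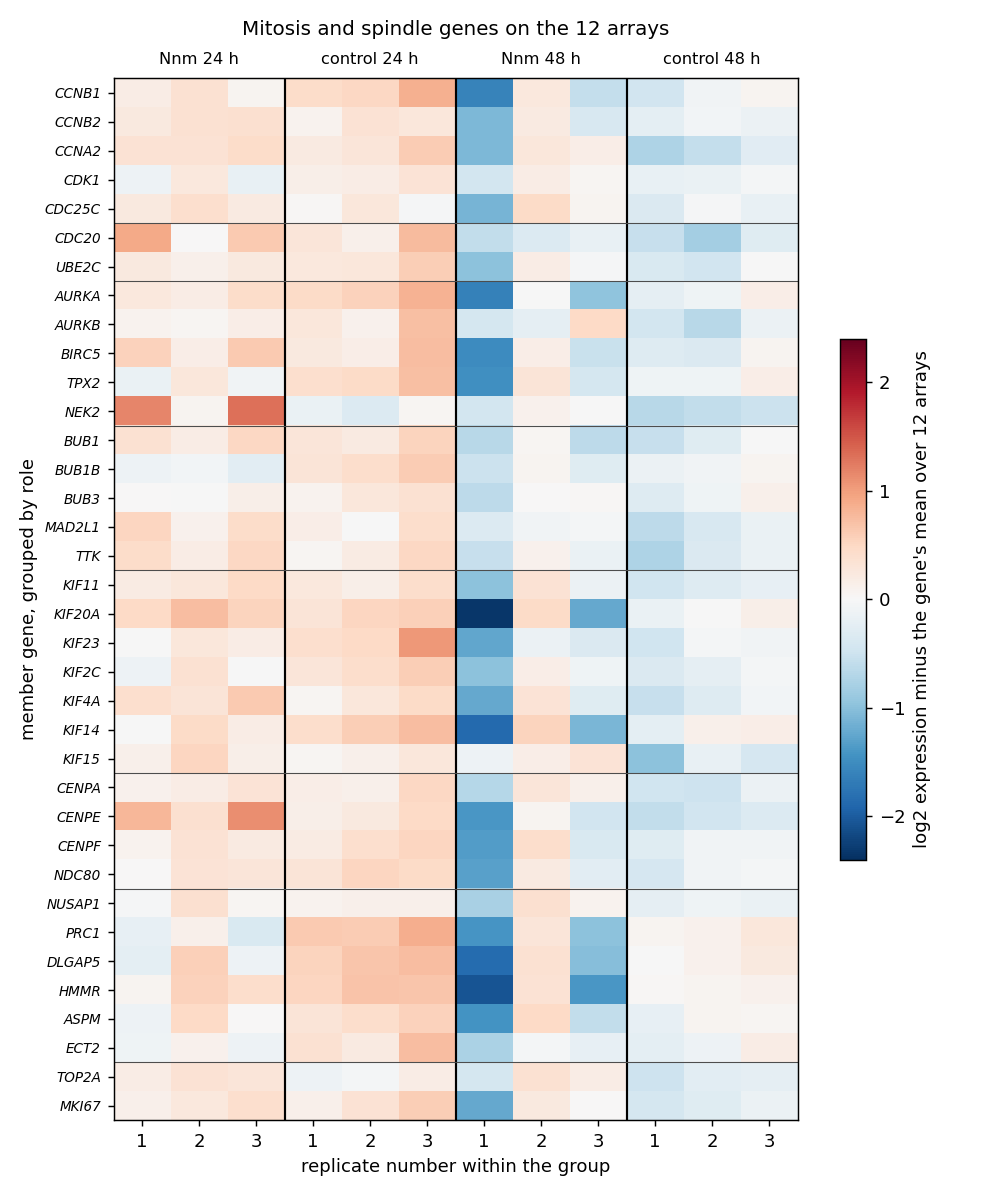
Log2 expression of the 36 members on each array minus the gene's mean over the 12 arrays (colour), with members in rows by role and arrays in columns by group and replicate number. In control cells the mean of every row is lower at 48 h than at 24 h, and the column of Nnm replicate 1 at 48 h is the lowest of its group in all 36 rows.

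The next comparison asked what Nnm changed after 24 h. Of the 36 members, 1 rose and 1 fell, a share below the 14.7% of all tested probe sets called. This fit too shares 1 spread per gene over all 4 groups, the Nnm arrays of 48 h included. The members' SD in Nnm cells had a median of 0.16 at 24 h and 0.67 at 48 h. Over all tested probe sets it was 0.30 and 0.28. The part of the shared spread in the count of calls was not tested. The median difference over the members was -0.12, against -0.01 over all tested probe sets. In the single pairs, 21, 20 and 28 members were lower in Nnm cells, with medians of -0.07, -0.04 and -0.18. Of the 35 further probe sets for members, 26 had the same sign as the one used for their gene. The count was also 26 of 35 for Nnm minus control at 48 h. The arrays of the groups did not overlap for 10 members, 8 lower and 2 higher, against 37.2% of all tested probe sets. The control cells at 24 h are the same arrays as in the comparison over time, so these values are not independent of it.

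NEK2, a kinase that helps duplicated centrosomes to part, measured 11.71, 10.61 and 11.87 in Nnm cells at 24 h, against 10.38, 10.21 and 10.58 in control cells. All 3 Nnm arrays were above all control arrays, but replicate 2 only just, and it had the smallest difference of the pairs. The difference was 1.00 ± 0.29 (SE; adjusted p = 0.0446, limma). A further probe set for NEK2 was also called and gave 0.95. Without both Nnm arrays numbered 2 the NEK2 difference was 1.4 (adjusted p = 0.000175, limma).

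BUB1B encodes BUBR1, the checkpoint protein that inhibits CDC20. It measured 9.69, 9.75 and 9.55 in Nnm cells at 24 h, against 10.11, 10.22 and 10.43 in control cells. The Nnm arrays all lay below the control arrays and lay close together, replicate 2 included, with a difference of -0.59 ± 0.16 (SE; adjusted p = 0.0379, limma). Both calls are marginal: each was lost under 12 of 22 alternatives, with limma adjusted p from 0.000175 to 0.168 for NEK2 and from 0.00464 to 0.137 for BUB1B, and the direction held under all 22. The remaining checkpoint genes differed by between -0.20 for BUB3 and 0.17 for MAD2L1, none of them called.

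The spindle and midbody genes had the lowest median of the role groups at 24 h (-0.39), and none was called. PRC1, which bundles antiparallel microtubules in the central spindle, measured 10.35, 10.68 and 10.19 in Nnm cells, against 11.18, 11.17 and 11.43 in control cells. The groups did not overlap, and the limma adjusted p was 0.11 for a difference of -0.86 ± 0.35 (SE). The shared spread includes an SD of 0.89 in Nnm cells at 48 h, against 0.25 in Nnm and 0.15 in control cells at 24 h. ECT2, the exchange factor that switches on RhoA at the cleavage site, differed by -0.48 without overlap (limma adjusted p = 0.128), and DLGAP5, which stabilizes kinetochore fibres, by -0.58 with overlap (limma adjusted p = 0.371). Without both Nnm arrays numbered 2, NEK2 rose and BUB1B, PRC1 and DLGAP5 fell, 4 of 36 members against 47.0% of all tested probe sets.

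In the other role groups no member but NEK2 and BUB1B was called at 24 h, and 5 were lower in Nnm cells without overlap: TPX2 (-0.52), KIF23 (-0.50), CCNB1 (-0.39), AURKA (-0.32) and UBE2C (-0.18). The Aurora group had a median of -0.26, with TPX2, AURKA and AURKB lower in all 3 pairs. The cyclins and CDK1 switch had differences from -0.39 for CCNB1 to 0.20 for CDC25C, the exit genes from -0.18 for UBE2C to 0.13 for CDC20, and the kinesins from -0.50 for KIF23 to 0.18 for KIF4A. TOP2A was 0.26 higher with no overlap (adjusted p = 0.349, limma), and MKI67 differed by -0.09. The further probe sets for MKI67 gave -0.75, -0.65 and -0.01, and a further one for CCNB1 gave -1.05, none of them called. CENPE reached 9.88, 9.45 and 10.18 in Nnm cells, against 9.21, 9.30 and 9.55 in control cells, a difference of 0.48 whose groups overlapped (adjusted p = 0.302, limma). The 95% interval for CENPE ran from -0.23 to 1.19. It rests on the spread shared by the 4 groups. The SD of CENPE was 0.37 in Nnm cells and 0.18 in control cells at 24 h, and 0.74 in Nnm cells at 48 h.

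**Figure D3:**
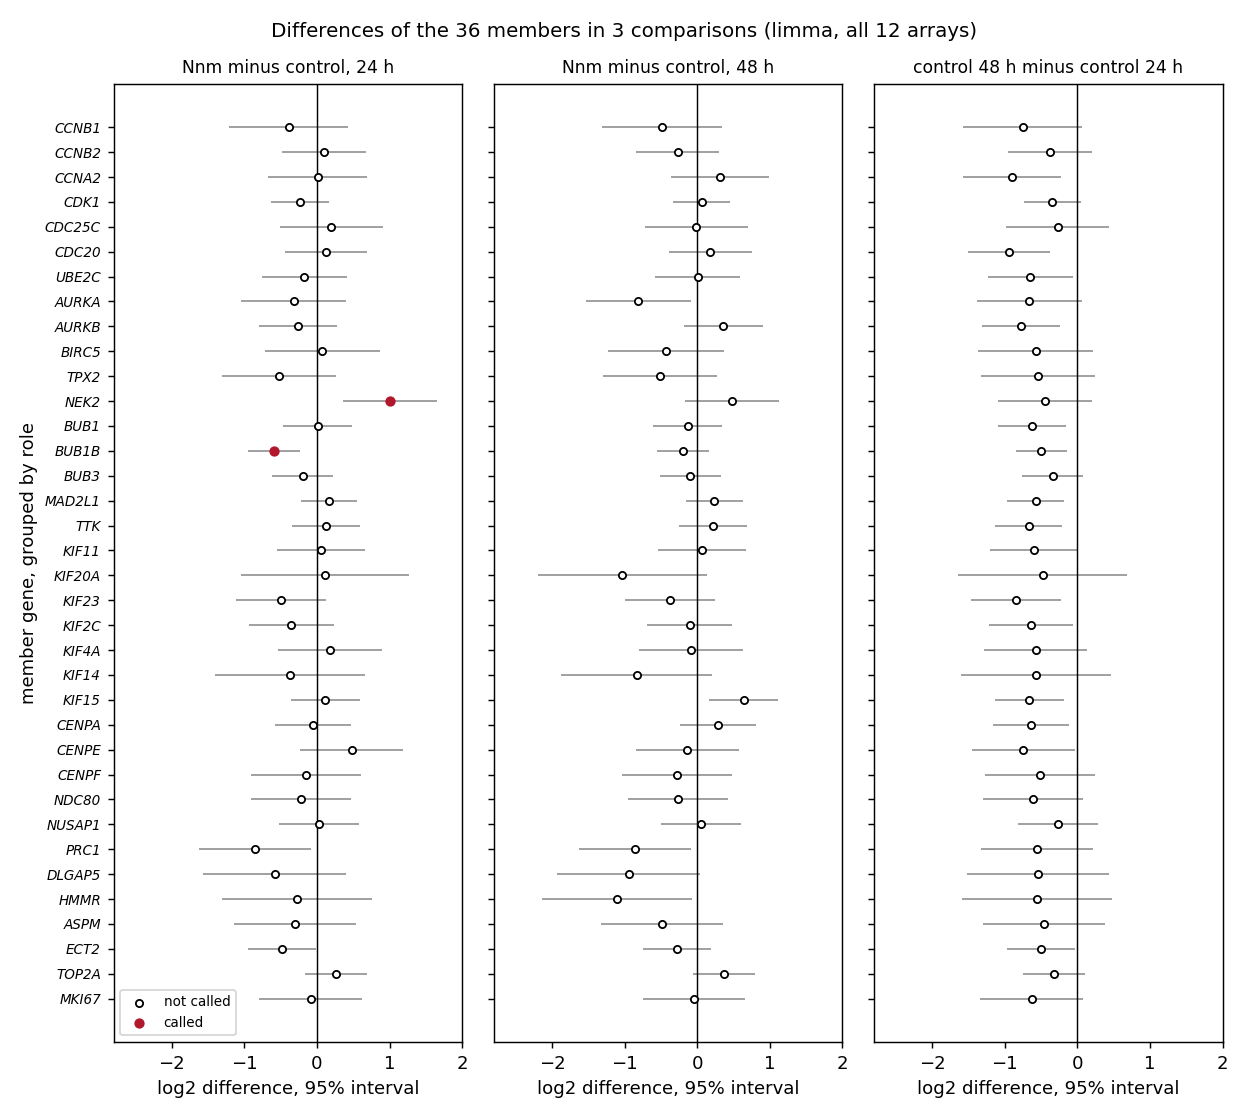
Difference of each member on the log2 scale with its 95% interval (horizontal line) from the limma fit of all 12 arrays, for Nnm minus control at 24 h (left), Nnm minus control at 48 h (middle) and control cells at 48 h minus 24 h (right). Filled points are members called at an adjusted p under 0.05 over all tested probe sets: NEK2 and BUB1B at 24 h and none in the other panels. All 36 points of the right panel lie below 0.

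At 48 h the question was whether Nnm moved the genes away from their lower level in control cells. No member was called by limma, against 10.2% of all tested probe sets, and 4 members had an unadjusted p under 0.05, against 30.6% of all. The median difference was -0.12. This summary covers arrays that ran in opposite directions. Pair 1 had 30 of 36 members lower in Nnm cells with a median of -0.66, pair 2 had 35 of 36 higher with a median of 0.41, and pair 3 had 22 lower with a median of -0.16. Exactly this order of signs, lower in pairs 1 and 3 and higher in pair 2, occurred in 21 of 36 members and in 12.4% of all tested probe sets. Leaving out Nnm replicate 1 turned the median difference to 0.21, and leaving out Nnm replicate 2 made it -0.36.

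**Figure D4:**
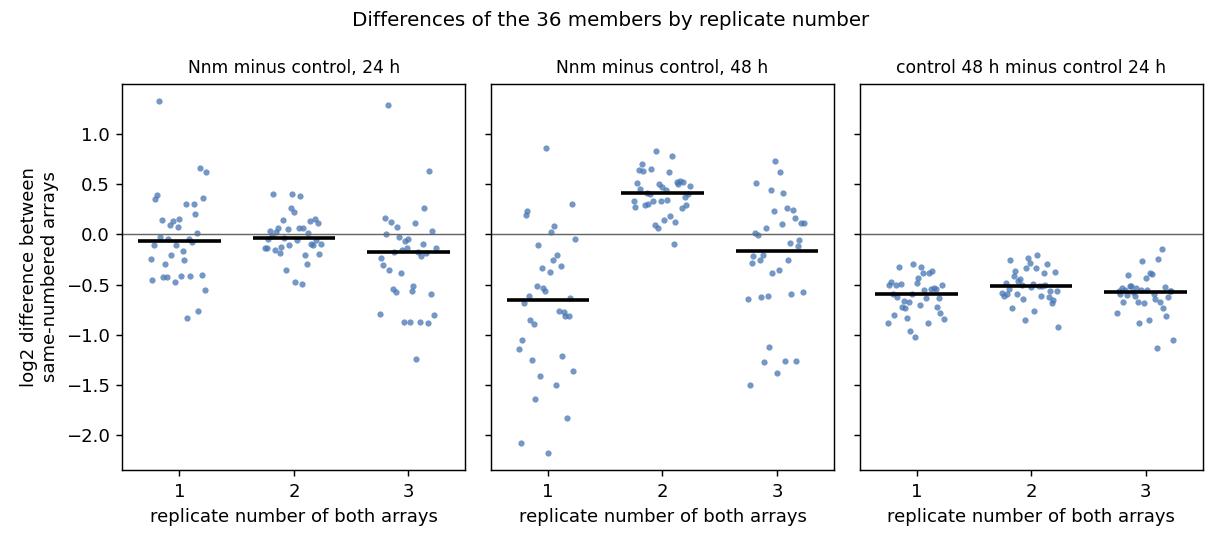
Difference of each of the 36 members between same-numbered arrays on the log2 scale (points) and the median of the members (bars), for Nnm minus control at 24 h, Nnm minus control at 48 h and control cells at 48 h minus 24 h. At 48 h the medians are -0.66, 0.41 and -0.16 for replicates 1, 2 and 3, while those of the control cells over time are -0.60, -0.51 and -0.57. The horizontal positions within a column carry no value.

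Among the members, the SD over the Nnm arrays of 48 h ran from 0.16 for MAD2L1 to 1.41 for KIF20A, with a median of 0.67. KIF20A, the kinesin that brings the Aurora B complex to the central spindle, measured 8.31, 11.12 and 9.42 in Nnm cells at 48 h, against 10.48, 10.65 and 10.80 in control cells. Replicates 1 and 3 lay below every control array and replicate 2 above every one, so the mean difference of -1.03 ± 0.52 (SE) had a limma adjusted p of 0.21. HMMR, which helps to organize spindle poles and is also known as a hyaluronan receptor, measured 8.33, 10.73 and 8.99 in Nnm cells, against 10.41, 10.46 and 10.49 in control cells. The pattern was the same, with a difference of -1.10 ± 0.47 (SE; adjusted p = 0.141, limma).

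KIF14, a kinesin of cytokinesis, measured 8.33, 10.73 and 9.10 in Nnm cells at 48 h, against 9.97, 10.33 and 10.37 in control cells. DLGAP5 measured 8.96, 11.17 and 9.77 in Nnm cells, against 10.79, 10.91 and 11.03 in control cells. PRC1 measured 9.13, 10.84 and 9.57 in Nnm cells, against 10.63, 10.65 and 10.83 in control cells. In each of the 3, replicates 1 and 3 of Nnm were below all control arrays and replicate 2 was above all of them. For PRC1 this held only just for replicate 2 (10.838 against 10.835 in control replicate 3). AURKA followed with 9.82, 11.45 and 10.49 in Nnm cells, against 11.24, 11.36 and 11.61 in control cells, where replicate 2 lay inside the control range. The rule for genes given in every array does not cover KIF20A, HMMR, KIF14, KIF23, DLGAP5, AURKA, CENPE and TOP2A, which were chosen with their values in view.

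**Figure D5:**
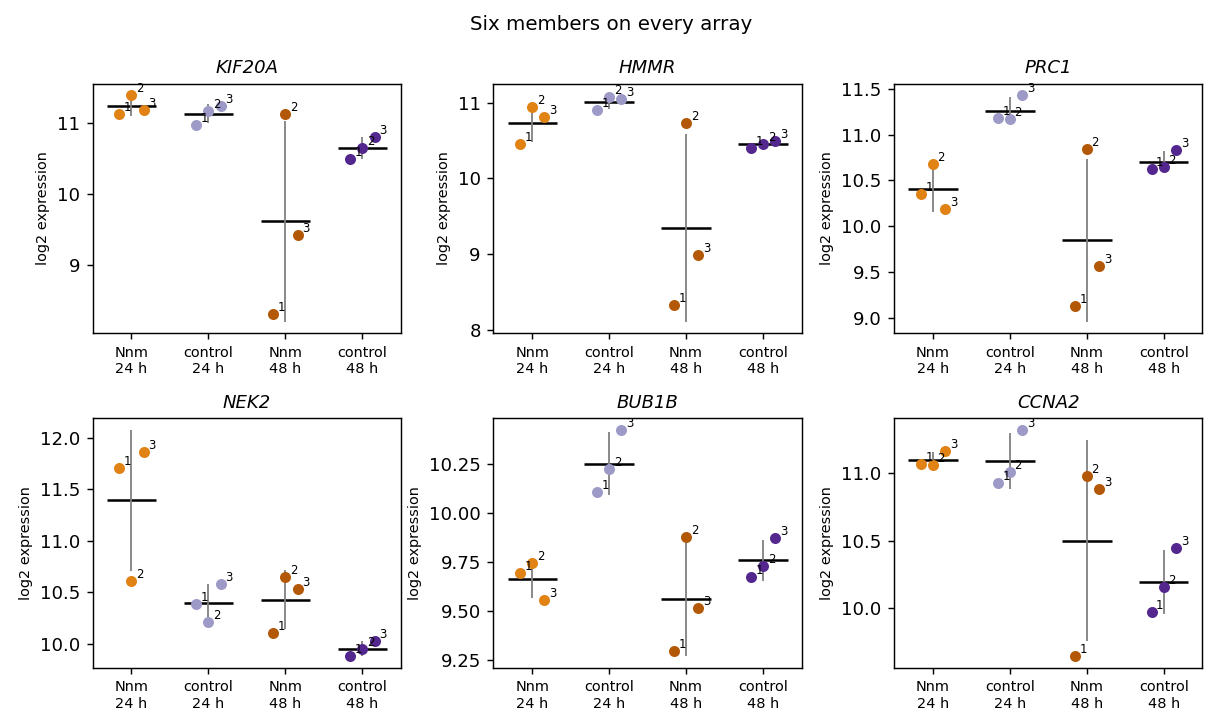
Log2 expression of KIF20A, HMMR, PRC1, NEK2, BUB1B and CCNA2 on every array (points, numbered by replicate), with the group mean (horizontal bar) and SD over 3 arrays (vertical line). The axes differ between panels. In the KIF20A, HMMR and PRC1 panels Nnm replicates 1 and 3 at 48 h lie below all control arrays of that time. Replicate 2 lies above them, only just so for PRC1.

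Over all 36 members, Nnm replicate 2 at 48 h exceeded replicate 1 by between 0.20 for AURKB and 2.81 for KIF20A, with a median of 1.32. Nnm replicate 1 was the lowest array of its group for 31.2% of all tested probe sets, against 36 of 36 members, and replicate 2 the highest for 42.7%, against 31 of 36. Replicate 2 also lay nearest to the control arrays over all genes, as given above, and the part of that difference between arrays in these results was not tested. Without both Nnm arrays numbered 2, 12 members fell at 48 h and none rose. These were KIF20A (-1.78), HMMR (-1.79), DLGAP5 (-1.54), KIF14 (-1.51), PRC1 (-1.35) and AURKA (-1.24), besides ASPM, CCNB1, TPX2, BIRC5, CENPF and CCNB2. Their share is below the 42.1% of all tested probe sets called in either direction in that fit. It is above the share of probe sets that fell there, 4514 of 22829, while 5091 rose.

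Some members did not share the pattern. KIF15, a kinesin that can stand in for KIF11 at the spindle, measured 8.08, 8.36 and 8.52 in Nnm cells at 48 h, against 7.22, 8.03 and 7.79 in control cells. Its groups did not overlap, and the difference of 0.64 ± 0.21 (SE) had a limma adjusted p of 0.0787, or 0.0272 with the replicate block over all arrays, where KIF15 was the 1 member that rose, beside 11.9% of all tested probe sets. With the block within the 6 arrays of 48 h alone, its adjusted p was 0.0988 and no member was called. NEK2 was again above control without overlap, at 10.10, 10.65 and 10.53 in Nnm cells, against 9.87, 9.95 and 10.02 in control cells, but the difference of 0.48 was not called (adjusted p = 0.29, limma). These 2 were the only members without overlap at 48 h, against 34.8% of all tested probe sets. CCNA2 measured 9.64, 10.98 and 10.88 in Nnm cells, against 9.97, 10.16 and 10.44 in control cells, so that replicates 2 and 3 lay above every control array and replicate 1 below (difference 0.31, adjusted p = 0.523, limma). TOP2A measured 11.77, 12.55 and 12.36 in Nnm cells, against 11.68, 11.94 and 11.96 in control cells. It was higher in all 3 pairs though the groups overlapped (difference 0.37, adjusted p = 0.22, limma), and MAD2L1 and TTK differed by 0.24 and 0.22. Further probe sets did not all go the same way. The one for CCNA2 gave -0.04, those for MAD2L1 gave 0.26 and -0.57, and those for TOP2A gave 0.24 and 0.24, none of them called.

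By role, the median differences of pairs 1, 2 and 3 at 48 h were as follows. In the spindle and midbody genes the pair medians were -1.38, 0.27 and -0.94, and in the Aurora group -1.21, 0.44 and -0.58. In the kinesins they were -0.68, 0.40 and -0.21, and in the kinetochore genes -0.85, 0.52 and -0.16. In the cyclins and CDK1 switch they were -0.77, 0.34 and 0.11, and in the 5 checkpoint genes -0.11, 0.29 and -0.09. The exit genes had -0.33, 0.56 and 0.05 and the chromosome proteins -0.36, 0.57 and 0.28. Pair 1 was below 0 and pair 2 above 0 in all 8 role groups, and differences between the role groups were not tested.

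Between 24 h and 48 h, Nnm cells also had all 36 members lower on average, by a median of -0.59, and no member was called by limma (0.0% of all tested probe sets called; 14 members and 13.7% of all probe sets with an unadjusted p under 0.05). The groups did not overlap for 10 members, all lower, against 6.02% of all tested probe sets. The pairs were again unlike: all 36 were lower in pair 1 with a median of -1.31, 22 in pair 2 with a median of -0.07, and 32 in pair 3 with a median of -0.56. CENPE measured 7.68, 9.14 and 8.62 in Nnm cells at 48 h, against 9.88, 9.45 and 10.18 at 24 h, with no overlap (difference -1.36, adjusted p = 0.198, limma). Without both Nnm arrays numbered 2, 19 members fell, against 10.1% of all tested probe sets that fell. The largest of these were KIF20A (-2.29), HMMR (-1.98), CENPE (-1.88), AURKA (-1.64) and BIRC5 (-1.61).

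The Nnm effect at 48 h minus that at 24 h was called for no member and for 0.0% of all tested probe sets, and 0 members against 6.21% of all had an unadjusted p under 0.05 (limma). Its values ran from -1.14 for KIF20A to 0.62 for AURKB. Without both Nnm arrays numbered 2, NEK2 (-1.03), KIF20A (-1.81) and HMMR (-1.42) were called lower, 3 of 36 against 4.63% of all tested probe sets.

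Of 103 other genes of the pathway, 98 were tested. At 24 h 4 rose and 3 fell, a share below the 14.7% of all tested probe sets called in either direction. At 48 h 7 rose and 2 fell, a share close to the 10.2% of all tested probe sets. Of all 22829, 1310 rose and 1013 fell at 48 h. TRIP13, the ATPase that reshapes MAD2 to silence the checkpoint, averaged 8.38 ± 0.70 in Nnm cells and 10.32 ± 0.42 in control cells at 24 h (SD, n = 3 each; difference -1.94, limma adjusted p = 0.0285). ESPL1, the separase that cuts cohesin, fell by 1.18, and PKMYT1, a kinase that keeps CDK1 inactive, fell by 0.92. STAG1, a cohesin subunit, rose by 0.58 and CDKN1B, the inhibitor p27, by 0.59. Of the transcription list, LIN52, a subunit of the MuvB core, rose by 1.06 and NFYB, a subunit of NF-Y, by 0.68. In the lists with no call at 24 h, the smallest p belonged to FZR1 (-0.79), NCAPH2 (-0.65) and KIFC1 (-0.42).

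At 48 h the largest rise among these genes was in E2F7, a repressor of cell cycle genes, at 9.41 ± 0.40 in Nnm cells and 8.13 ± 0.14 in control cells (SD, n = 3 each; difference 1.28, limma adjusted p = 0.00871). Its relative E2F8 rose by 0.68 and RBL1, the p107 pocket protein of DREAM, by 0.85. CDCA5, which protects cohesin, rose by 1.11, the kinetochore gene MIS12 by 0.82, the CDK1 inhibitor kinase WEE1 by 0.68 and CDC26, a subunit of the anaphase-promoting complex, by 0.61. ANAPC15 of the same complex fell by 1.31 and CDKN2A, the p16 and ARF locus, by 0.67. NCAPH2 (-0.29) and KIF18B (0.26) had the smallest p of the lists with no call. Each of these 9 called genes moved the same way in all 3 pairs, and the step was smaller in pair 2 than in pairs 1 and 3 for all but CDC26.

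Over time in control cells, 79 of the 98 other pathway genes were lower at 48 h, 63 of them in all 3 pairs, with a median difference of -0.31 against -0.01 over all tested probe sets. None was called by limma in the fit of all arrays, where 30 of the 98 were lower and none higher at an unadjusted p under 0.05, and where SKA3 (-0.74), KIFC1 (-0.79), E2F8 (-0.69), CKS1B (-0.49), NCAPH (-0.96), CDCA5 (-0.81), CDC26 (-0.36) and CDKN1C (0.61) had the smallest p of their lists. With the block within the 6 control arrays, 35 of the 98 fell, against 4.79% of all tested probe sets, and 1 rose, CDKN1C (the inhibitor p57), against 4.1%. The 8 other motors and cytokinesis genes tested all fell there, as did 10 of 20 kinetochore and checkpoint genes, 6 of 11 entry regulators and 3 of 8 condensin genes, but 1 of 16 genes of the anaphase-promoting complex. FOXM1 and MYBL2 (B-MYB), the activators of the CHR promoters, were looked at after their values were seen and differed by -0.66 and -1.05 (adjusted p = 0.0334 and 0.0273 with that block, limma). FOXM1 measured 9.23, 9.05 and 9.39 in Nnm cells at 48 h, against 8.82, 8.39 and 8.82 in control cells, above control in every pair including pair 2 (difference 0.55, adjusted p = 0.224, limma). MYBL2 at 48 h differed by 0.78 (adjusted p = 0.145, or 0.00903 with the replicate block over all arrays, limma).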

How the data were processed

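Total RNA from HK-2 cells was hybridised as biotinylated cRNA to Affymetrix arrays, 1 array for each of 12 samples. The deposited table holds a log2 value for each probe set on each array. The authors computed these with GCRMA, as the submitters' processing notes state, without a version or a list of the arrays normalized together. No scanner intensities were used.

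Of 54675 probe sets, 41091 name 1 gene, 1801 several, 11721 none and 62 are manufacturer controls. The 22829 probe sets above a log2 value of 4 on at least 3 of 12 arrays were fitted together with limma 3.58.1 in R 4.3.3 (4 groups, 8 residual degrees of freedom, moderated statistics). A call is a Benjamini-Hochberg adjusted p under 0.05 over all tested probe sets. P-values measure the spread between biological replicates of 1 line, and the number of arrays limits the precision. The script was tested on simulated data.

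The members and lists were chosen with earlier results of these data known. Values in every array are given for called members (up to 4 in a role group) or, in a role group with none, the member of smallest p, and up to 3 called genes or the 1 of smallest p are named from each other list. Members named beyond that rule are said to be chosen after their values were seen.

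Deviations from group means correlated above 0.1 in 18 of 18 same-numbered pairs of arrays (0.162 to 0.669), against a median of -0.208 over 36 differently numbered pairs. Because the deviations of a group cancel over its arrays, the negative median is tied to the positive values and is no separate reference. The pairing comes from the data, since the labels do not say what a number shares. Alternatives were the filter, centring, quantile normalization, the variance model, the probe set rule, the arrays fitted, the replicate block and leaving out arrays. Gene names and promoters came from RefSeq (GRCh38.p14), and motifs were also searched upstream only (a CHR form in 17 of 30) and on the gene's strand only (19 of 30).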

Additional observations from a re-analysis of the deposited data

Results flagged for a closer look

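AURKB differed from its control in opposite directions at the 2 times. Nnm minus control was -0.17, -0.06 and -0.56 in the 3 pairs at 24 h, and 0.03, 0.44 and 0.62 at 48 h. The effect at 48 h minus that at 24 h was 0.62, with a limma adjusted p of 0.781, so this difference did not pass the test.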

How the results depend on the processing

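For Nnm against control at 24 h, the 2 called members became 0 with no filter, 0 with only the arrays of the groups compared and 0 with the replicate block within those arrays, and 4 without both Nnm arrays numbered 2. Leaving out single arrays gave 0 to 3. At 48 h the count of 0 became 1 with the replicate block over all arrays, was 0 with that block within the arrays of 48 h and became 12 without both Nnm arrays numbered 2, and single arrays gave 0 to 10, the highest without Nnm replicate 2 of 48 h. For control cells over time the count of 0 became 29 with the replicate block within the control arrays and stayed 0 when any single array was left out. For Nnm cells over time it became 19 without both Nnm arrays numbered 2, and single arrays gave 0 to 14, the highest without Nnm replicate 2 of 48 h. For the effect at 48 h minus that at 24 h it became 3 without both Nnm arrays numbered 2. The median difference of the members ran from -0.22 to -0.021 at 24 h when single arrays were left out (lowest without control replicate 1 and highest without control replicate 3 of 24 h) and from -0.36 to 0.21 at 48 h. In control cells over time it ran from -0.67 to -0.49. At 48 h it was 0.21 without Nnm replicate 1 and -0.36 without Nnm replicate 2. The replicate block changed no other count of called members. The cause of these changes was not tested. A CHR form was found in 17 members upstream only and in 19 on the gene's strand only, against 23 in the main search.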
